A study of Mus musculus with 10 samples.

Results

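The immediate early and dissociation stress genes are 40 genes that cells switch on within minutes to hours of a stimulus, of warming or of enzymatic tissue digestion, together with the inhibitors and chaperones that follow. They were taken by symbol from the deposited gene counts of sorted brain macrophages, and all 40 were found among 53546 genes. Of these, 37 had enough counts to be tested, among 14023 genes tested in all. The genes fell into 7 role groups: AP-1 and ATF subunits, EGR factors, NR4A receptors, KLF factors, other early response genes, feedback inhibitors and heat shock chaperones. They served as a readout of cell handling in each library and were set against genotype.

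The cells were CNS-associated macrophages (CAMs), the macrophages of the brain's borders, sorted by flow cytometry from brains of individual C57BL/6N mice aged 6 to 8 weeks that received no treatment. The 10 libraries came from 4 homozygous (Mrc1-CreERT2/Mrc1-CreERT2), 3 heterozygous (Mrc1-CreERT2/wt) and 3 wild-type mice. Mrc1-CreERT2 names a line in which a tamoxifen-inducible Cre recombinase is tied to Mrc1, the mannose receptor gene of these macrophages, and all libraries carry 1 batch label. cDNA was made from 500 pg of total RNA per library by a full-length kit that does not mark strand. Each title also holds the letter m or f, which the labels do not explain: 2 of the 4 homozygous, 1 of the 3 heterozygous and 1 of the 3 wild-type libraries are f. The letter matched the sex-linked transcripts in 10 of 10 libraries. Xist ran from 117 to 250.1 CPM in the f libraries and was at most 2.46 CPM in the m libraries. CPM are reads of a gene per 1000000 reads of the library, with the library's total scaled as described under processing. p-values below measure the spread between these mice.

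Immediate early genes need no new protein for their transcription. Kinase cascades activate factors already present, among them serum response factor and CREB, which act on genes such as Fos, Egr1 and Dusp1 before feedback inhibitors end the response. Heat shock chaperones are driven separately, by heat shock factor 1, which binds repeated heat shock elements when unfolded protein builds up. In brain macrophages, both programmes are known to be switched on during tissue dissociation at warm temperature, so that they are often read as a sign of handling.

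Total counts ran from 22986972 to 36575446 per library. Border macrophage markers were abundant, with 11 of 11 detected and a sum of 49310 to 67030 CPM, and the markers of endothelial cells were near 0 (sum at most 4.51 CPM, with Cldn5 and Ly6c1 at 0 in every library). Sums reached 11.8 CPM for mural cells and fibroblasts, 25.7 for neurons, 72.4 for astrocytes, 178 for oligodendrocytes and 900 for erythroid cells. The astrocyte marker Gja1 was called higher by edgeR in homozygous (3.77 to 13.5 CPM) than in wild-type libraries (0 CPM, adjusted p = 0.0315). Microglia markers, 9 of 9 detected, summed to 2103 to 3254 CPM in homozygous, 4271 to 6502 CPM in heterozygous and 4186 to 9825 CPM in wild-type libraries. Mrc1 itself measured 441 to 541 CPM in homozygous, 1983 to 2284 CPM in heterozygous and 3062 to 3744 CPM in wild-type libraries. A count of 0 allows a level of up to 0.082 to 0.131 CPM, depending on the library. These limits are 3 counts over the unscaled total and cover counting error only, since amplified reads are not independent molecules. In these bulk libraries, fewer cells of a type and less RNA per cell cannot be told apart.

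Chaperone genes are shown first by sequence because Hspa8, one of them, was the 1 gene of the 40 that edgeR, the main test, called in any comparison below. The upstream sequence of 4 of them shows the element that heat shock factor reads. Promoter entries in the RefSeq table (GRCm38.p6, 250 bases before to 50 after the start) matched 32 of the 40 genes, and the unmatched ones were Cebpd, Nfkbiz, Hspa8, Egr1, Egr3, Hsp90ab1, Hsp90aa1 and Ier2. The 2-unit heat shock element, searched as GAANNTTC or TTCNNGAA, each of which is its own reverse complement so that both strands are covered, was present in 5 of 6 chaperone promoters and in 8 of the 32 promoters in all. It was present in 15.1% of all 32851 promoters of the same length. The chaperones with it were Hspa1a, Hspa1b, Dnaja1, Hsph1 and Hspb1, whose sequence is not shown. Dnajb1 was matched and did not hold it. Whether the element goes with the differences described below was not tested. The stretches below run from 250 bases upstream to the base before the start, 5′ to 3′ on the gene's strand, with the element in capitals. They lie at chr17:34972157-34972406 (minus strand), chr17:34959239-34959488 (minus strand), chr4:40722218-40722467 (plus strand) and chr5:149636337-149636586 (minus strand). The genome build of the counts is not given in any source used here.
Hspa1a: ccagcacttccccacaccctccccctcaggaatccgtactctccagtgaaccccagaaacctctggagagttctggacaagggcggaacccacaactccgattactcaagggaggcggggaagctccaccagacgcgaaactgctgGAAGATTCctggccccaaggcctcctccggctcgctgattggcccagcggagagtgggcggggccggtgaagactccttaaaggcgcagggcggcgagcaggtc
Hspa1b: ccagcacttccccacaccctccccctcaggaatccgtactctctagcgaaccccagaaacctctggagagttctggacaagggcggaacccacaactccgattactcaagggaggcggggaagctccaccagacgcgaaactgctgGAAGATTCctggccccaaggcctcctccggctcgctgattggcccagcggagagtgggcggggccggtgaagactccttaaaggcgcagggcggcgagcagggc
Dnaja1: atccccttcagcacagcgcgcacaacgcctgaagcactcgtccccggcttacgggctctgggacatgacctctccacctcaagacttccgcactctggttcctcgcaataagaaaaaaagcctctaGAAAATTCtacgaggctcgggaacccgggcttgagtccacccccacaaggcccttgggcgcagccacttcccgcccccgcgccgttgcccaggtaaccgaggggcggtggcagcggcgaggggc
Hsph1: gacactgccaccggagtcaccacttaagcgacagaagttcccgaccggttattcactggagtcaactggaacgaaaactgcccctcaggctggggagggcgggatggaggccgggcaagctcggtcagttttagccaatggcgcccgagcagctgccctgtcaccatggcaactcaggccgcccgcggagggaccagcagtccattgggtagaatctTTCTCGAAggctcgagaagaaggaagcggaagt
The Hspa1a and Hspa1b stretches were identical at 247 of 250 positions (98.8%), with the element at the same distance from the start. Hspa1a and Hspa1b encode the stress-inducible HSP70 and are near-identical copies, so counts of each are uncertain where reads could be split between them. Hsph1 alone also held a 3-unit element, which occurs in 0.603% of all promoters. That element is not contained in the stretch shown, which leaves out the searched bases after the start. Of the other elements searched, the CArG box read by serum response factor was in the promoters of Dusp5, Egr2 and Zfp36 (1.63% of all promoters). The cyclic AMP response element TGACGTCA was in those of Btg2 and Dusp1 (1.79%), and the AP-1 site TGANTCA was in 0 of 32 (7.81%). A match of letters is a description and not a bound site.

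Across the genes as a whole, transcript level per length spanned a wide range. Levels between genes are given as CPM per kilobase of annotated exon (GENCODE vM21), as mean ± SD over 10 libraries. Hspa8, the constitutive HSP70 that folds new proteins, measured 314 ± 116, and Hsp90ab1, the constitutive HSP90, 302 ± 67.4. Jun, an AP-1 subunit, followed at 136 ± 23.9, Nfkbia, the inhibitor that holds NF-kB in the cytoplasm, at 127 ± 32.1, and Klf6, a zinc-finger factor, at 99.7 ± 10.4. Over the libraries Hspa8 ranged from 142 to 455 and Hsp90ab1 from 206 to 402, so their ranges overlapped, as did those of Jun and Nfkbia. These genes were not compared library by library. The inducible Fos measured 24.6 ± 17.3 and Egr1 7.38 ± 6.36. At the low end, Egr3, Nr4a2 and Nr4a3 stayed below 5 CPM in every library and were not tested. The 40 genes together held 0.384 to 0.684% of a library's counts, and the 9 chaperones 0.155 to 0.4101%.

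**Figure D1:**
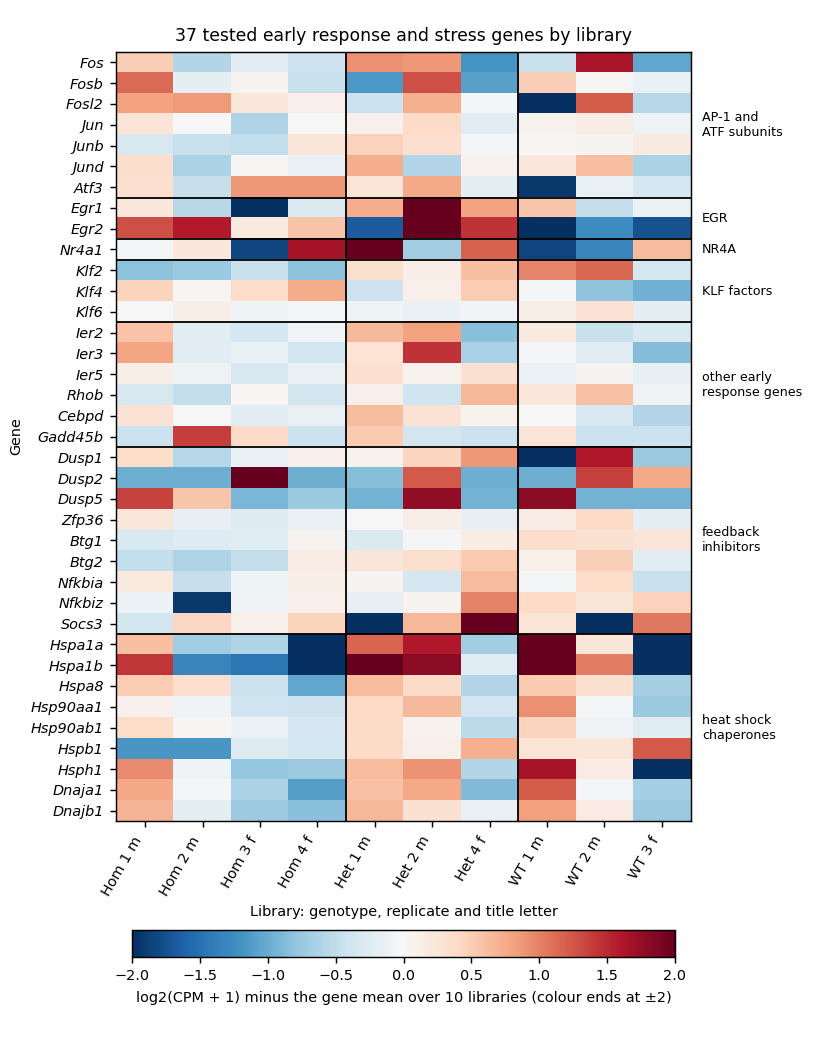
Heat map of the 37 tested genes (rows, by role group) in 10 libraries (columns, by genotype, replicate and title letter); colour is log2(CPM + 1) minus the gene's mean, ending at ±2. The rows of Hspa1a to Dnajb1 except Hspb1 are blue in the 4 f columns. The Klf2 row is blue in the 4 homozygous columns and, more faintly, in wild-type replicate 3.

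None of the 37 tested genes was called between genotypes by edgeR at an adjusted p under 0.05. In homozygous against wild-type libraries, 0 of 37 were called (0.0642% of all tested genes were), 4 of 37 had an unadjusted p under 0.05 (7.52% of all tested genes), and 4 lay entirely below wild type (3.57% of all tested genes). The 4 genes entirely below were Klf2, Btg1, Nfkbiz and Hspb1, while Egr2 and Klf4 lay entirely above (4.4% of all tested genes did). In homozygous against heterozygous libraries, 0 were called (0.0214%), 5 had an unadjusted p under 0.05 (4.86%) and 4 lay entirely below (3.72%), namely Klf2, Btg2, Egr1 and Hspb1, and 0 lay entirely above (3.75%). In heterozygous against wild-type libraries, 0 were called (0.0% of all tested genes), 3 had an unadjusted p under 0.05 (5.82%), Btg1 alone lay entirely below (4.16%), and Egr1, Ier5 and Cebpd lay entirely above (5.43%). DESeq2 called Btg1 and Klf2 in the first of these comparisons and 0 of the 37 in each of the others, and limma-voom called 0 in all 3. The comparisons share libraries and are not independent of each other.

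The median log2 fold change over the 37 genes was -0.21 in homozygous against wild-type libraries, with 26 of 37 fitted below 0, beside 0.02 over all tested genes. Against heterozygous libraries it was -0.38, with 30 of 37 below 0, beside 0.01. Between heterozygous and wild-type libraries it was 0.07, with 14 of 37 below 0, beside 0.01. These medians moved with the title letter and with single libraries. With the letter in the fit they were -0.07, -0.24 and 0.15, and without wild-type replicate 3 the first was -0.35 and the last -0.18. Without wild-type replicate 1 or 2 the first was -0.04 and -0.05, and without heterozygous replicate 2 the second was -0.18.

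**Figure D2:**
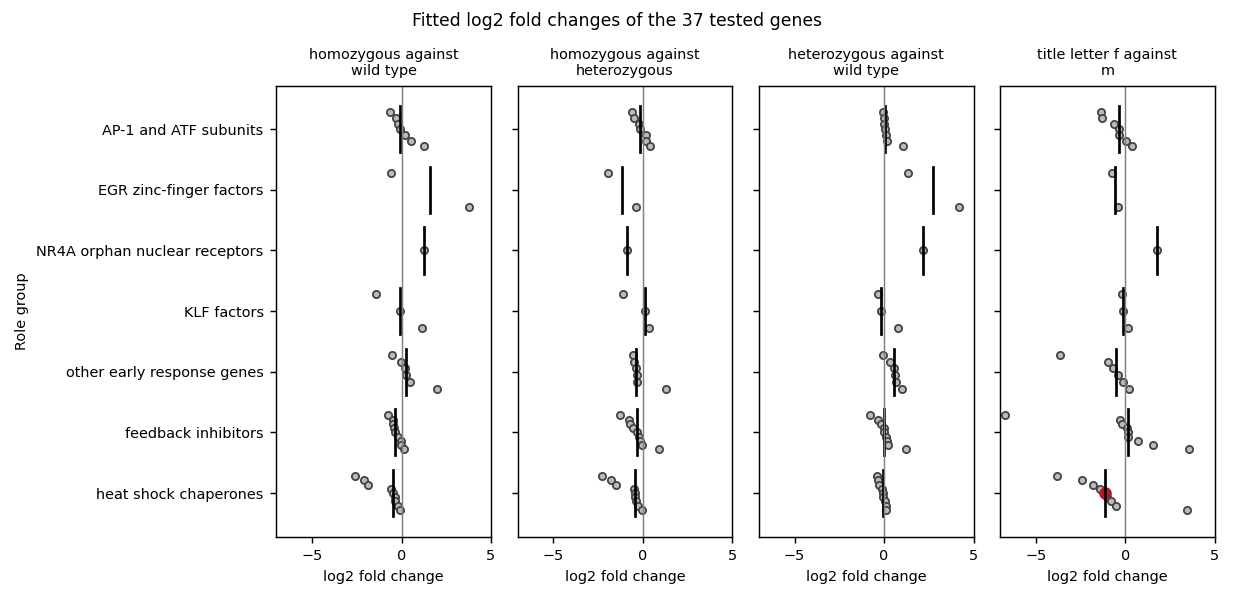
Fitted log2 fold changes of the 37 tested genes in 4 comparisons (panels), by role group (vertical axis); each point is 1 gene, black lines are group medians and the red point is Hspa8, the 1 gene called by edgeR. Chaperones lie left of 0 in both homozygous comparisons and, apart from Hspb1, furthest left as a group between f and m libraries, at a median of -1.11.

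Among the AP-1 and ATF subunits, which pair into dimers that bind AP-1 sites, none of 7 was called in any genotype comparison. Jun measured 511, 422, 282 and 424 CPM in homozygous, 454, 554 and 363 CPM in heterozygous and 447, 471 and 397 CPM in wild-type libraries. Junb, a partner that often restrains Jun, measured 78.7, 72.04, 69.7 and 117 CPM in homozygous, 136, 126 and 96.6 CPM in heterozygous and 102, 102 and 112 CPM in wild-type libraries. Fos, the classical immediate early gene, measured 67.6, 31.2, 41 and 35.5 CPM in homozygous, 89.9, 87.01 and 20.2 CPM in heterozygous and 34.5, 149 and 22.6 CPM in wild-type libraries. The genotypes overlapped for all 3 genes, and Fos was highest in wild-type replicate 2 and lowest in heterozygous replicate 4. Junb had a log2 fold change of -0.50 (SE 0.21) in homozygous against heterozygous libraries, at an unadjusted edgeR p of 0.0346, short of the threshold after adjustment over all genes (adjusted p = 1). Atf3, a stress-induced factor that dampens inflammatory transcription, measured 11.03, 5.88, 16.3 and 16.3 CPM in homozygous, 10.4, 15.01 and 7.38 CPM in heterozygous and 1.496, 7.58 and 6.47 CPM in wild-type libraries. Its difference between homozygous and wild-type libraries, 1.25 (SE 0.70), did not pass either (adjusted p = 0.758), and wild-type replicate 1 was its lowest library. Fosb, Fosl2 and Jund, the remaining subunits, had mean levels of 2.51, 15.1 and 47.6 CPM and adjusted p-values of at least 0.999 in each genotype comparison.

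The EGR factors, zinc-finger proteins that carry growth and activation signals to late genes, were low and variable. Egr1 measured 28.04, 16.1, 2.25 and 19.6 CPM in homozygous, 40.6, 106 and 43 CPM in heterozygous and 35.97, 17.1 and 22.1 CPM in wild-type libraries. The heterozygous libraries all lay above the homozygous and the wild-type ones, and heterozygous replicate 2 stood far above every other library. The fitted log2 fold change was -1.94 (SE 0.68) in homozygous against heterozygous libraries (unadjusted p 0.0167, adjusted p 1). In heterozygous against wild-type libraries it was 1.33 (SE 0.73, adjusted p = 0.811). Egr2, which is also needed for the mature state of several macrophage types, measured 14.6, 18.1, 6.26 and 8.44 CPM in homozygous, 1.004, 28.8 and 16.3 CPM in heterozygous and 0, 1.65 and 0.902 CPM in wild-type libraries. All 3 wild-type libraries were below every homozygous library, while heterozygous replicate 1 lay among the wild-type values. Its log2 fold changes were 3.79 (SE 1.47) in homozygous and 4.17 (SE 1.53) in heterozygous against wild-type libraries, with adjusted p-values of 0.629 and 0.791. Egr3 was at most 0.249 CPM.

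Of the NR4A receptors, orphan nuclear receptors induced by activation signals, Nr4a1 alone was tested. It measured 2.47, 3.16, 0 and 10.3 CPM in homozygous, 13.9, 1.2 and 7.12 CPM in heterozygous and 0, 0.428 and 4.54 CPM in wild-type libraries. The values scattered within each genotype, from 0 to 10.3 CPM in homozygous libraries alone, and no comparison passed. Nr4a2 reached 4.49 CPM in homozygous replicate 2 and at most 1.02 CPM elsewhere. Nr4a3 had counts in homozygous replicate 2 (0.708 CPM) and wild-type replicate 2 (0.916 CPM) and none in the other 8 libraries.

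Klf2 had the smallest p of the 37 genes in both homozygous comparisons. Klf2, a zinc-finger factor that quiets inflammatory gene expression in myeloid and endothelial cells, measured 45.3, 47.7, 58.7 and 45.1 CPM in homozygous, 101, 88.7 and 123 CPM in heterozygous and 158, 179 and 62.6 CPM in wild-type libraries. All 4 homozygous libraries lay below every heterozygous and wild-type library, with wild-type replicate 3 closest at 62.6 CPM. The log2 fold change was -1.44 (SE 0.31) against wild type, a 2.71-fold lower level (unadjusted p 0.000846, adjusted p 0.27). Against heterozygous libraries it was -1.08 (SE 0.31) (unadjusted p 0.00541, adjusted p 0.985). Over 19 alternatives the first value ran from -1.78 to -1.17 and the adjusted p from 0.00115 to 0.612. It passed in DESeq2 and in edgeR without wild-type replicate 3 (-1.78, adjusted p = 0.0205).

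Of the leukocyte markers checked beside Klf2, Ccr2, a monocyte receptor, was called lower by edgeR in homozygous libraries, at log2 fold changes of -4.18 against wild type (adjusted p = 0.00216) and -2.80 against heterozygous libraries (adjusted p = 0.0421). Monocyte markers (4 of 5 detected, Chil3 at 0 in every library) summed to 5.72 to 13.4 CPM in homozygous, 49.0 to 68.0 CPM in heterozygous and 75.7 to 163 CPM in wild-type libraries, mostly from Ccr2. B cell markers (5 of 5 detected) summed to 251 to 409 CPM, 329 to 445 CPM and 429 to 709.9 CPM in the same order. T and NK cell markers (5 of 5 detected) summed to 6.78 to 11.3 CPM, 17.8 to 27.3 CPM and 0.978 to 43.7 CPM. The homozygous sums of T and NK cell markers thus lay below the heterozygous ones, and the wild-type sums overlapped both. No tested marker of B, T or NK cells passed in a genotype comparison. Neutrophil markers (4 of 7 detected, Ly6g, S100a8 and Retnlg at 0 in every library) ran the other way, from 571 to 1147 CPM in homozygous, 291.5 to 541.7 CPM in heterozygous and 314 to 426 CPM in wild-type libraries, mostly from Mmp9, and none of them passed. The part of these transcripts in the Klf2 difference was not tested.

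Of the other 2 KLF factors, Klf6, induced by injury and inflammatory signals, measured 440.1, 475, 409 and 429 CPM in homozygous, 410.4, 396 and 421 CPM in heterozygous and 476, 535 and 385.4 CPM in wild-type libraries. The genotypes overlapped, with adjusted p-values of 0.92 or more. Klf4, which supports the monocyte to macrophage programme, measured 8.38, 6.07, 7.896 and 10.5 CPM in homozygous, 4.204, 6.43 and 8.76 CPM in heterozygous and 5.78, 2.96 and 2.55 CPM in wild-type libraries. All homozygous libraries exceeded all wild-type ones, at a log2 fold change of 1.12 (SE 0.71) and an adjusted p of 0.858. Klf2 and Klf4 thus had fitted values of opposite sign in that comparison, and neither passed in edgeR with all libraries.

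**Figure D3:**
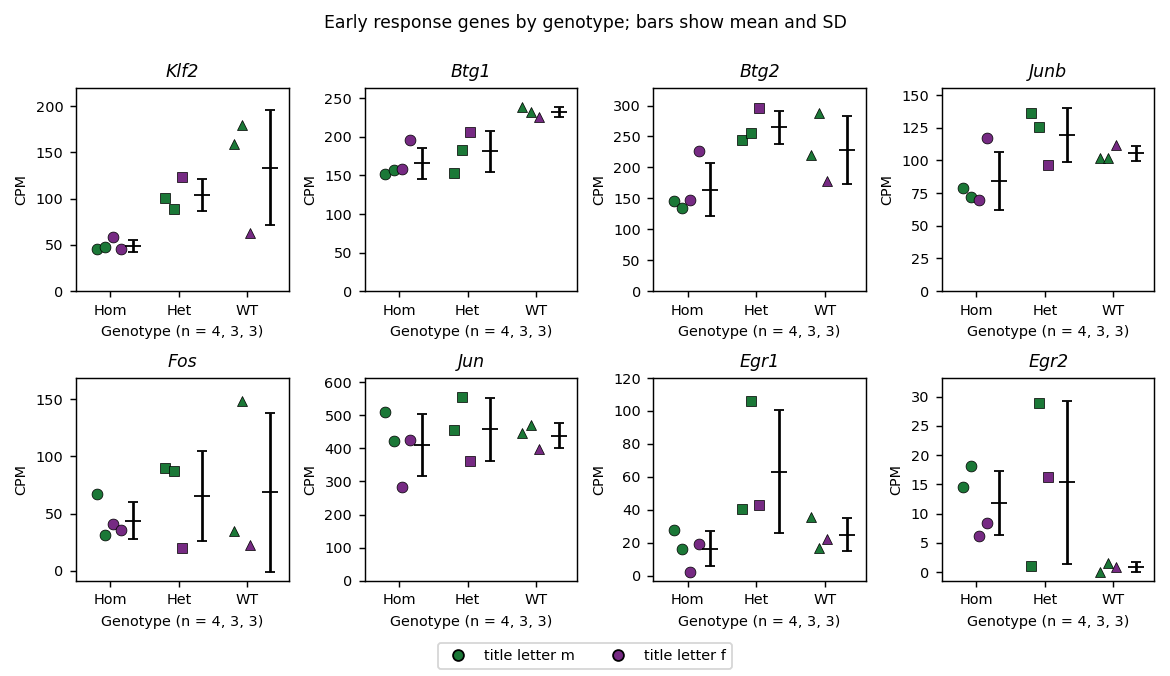
CPM of 8 early response genes (panels) in homozygous (n = 4), heterozygous (n = 3) and wild-type (n = 3) libraries; each point is 1 library, green for title letter m and purple for f, with mean and SD beside it. The homozygous Klf2 points, 45.1 to 58.7 CPM, lie below all others, the heterozygous Egr1 points, 40.6 to 106 CPM, lie above all others, and the Fos groups overlap.

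None of the 6 other early response genes was called in a genotype comparison. Cebpd, a C/EBP factor induced in acute inflammation, measured 244, 199, 170.5 and 179 CPM in homozygous, 311, 244 and 211 CPM in heterozygous and 199.8, 160.2 and 132 CPM in wild-type libraries. All heterozygous libraries lay above all wild-type ones (0.64, SE 0.20, unadjusted p 0.0108, adjusted p 0.791), and homozygous libraries overlapped both. Ier5, which is known to assist heat shock factor 1, measured 119, 102, 87.7 and 98.8 CPM in homozygous, 138, 115 and 136 CPM in heterozygous and 101, 114 and 98.5 CPM in wild-type libraries. It was also entirely higher in heterozygous than in wild-type libraries, by 0.31 (SE 0.16), and overlapped between homozygous and heterozygous ones (-0.35, SE 0.15, unadjusted p 0.0405). Ier2, a nuclear early response protein, measured 138, 78.3, 71.7 and 88.3 CPM in homozygous, 146, 162 and 50.98 CPM in heterozygous and 106, 67.5 and 74.6 CPM in wild-type libraries. Ier3, which modulates survival and NF-kB signals, measured 46.5, 22.8, 23.8 and 20.3 CPM in homozygous, 32.1, 73.6 and 16.4 CPM in heterozygous and 25.5, 22.4 and 14 CPM in wild-type libraries. Rhob, a small GTPase of endosomes, measured 55, 49.6, 70.8 and 53.6 CPM in homozygous, 74.6, 52.5 and 111 CPM in heterozygous and 81.1, 104 and 65.7 CPM in wild-type libraries. For these 3 genes the genotypes overlapped, and the smallest adjusted p was 0.696, for Rhob in homozygous against wild-type libraries. Gadd45b, a stress sensor, was at 0 in 5 of 10 libraries and reached 2.504 CPM in homozygous replicate 2.

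Feedback inhibitors end the early response, and 0 of 9 were called by edgeR. Btg1, an antiproliferative protein of quiescent cells, measured 152, 157, 158 and 195 CPM in homozygous, 154, 184 and 207 CPM in heterozygous and 239, 232 and 225 CPM in wild-type libraries. The wild-type libraries all exceeded the others, and homozygous and heterozygous ones overlapped. Btg1 had a log2 fold change of -0.49 (SE 0.14) in homozygous against wild-type libraries, at an unadjusted p of 0.00461. The adjusted edgeR p was 0.439, and over 19 alternatives it ran from 0.0463, in DESeq2, to 0.728. In heterozygous against wild-type libraries it was -0.36 (SE 0.14) (adjusted p 0.791). Btg2, the paralogue of Btg1 and a p53 target, measured 146, 134, 148 and 227 CPM in homozygous, 244, 256 and 295 CPM in heterozygous and 219.9, 287 and 178 CPM in wild-type libraries. Homozygous libraries lay entirely below heterozygous ones, with replicate 4 the closest, and overlapped with wild type. The log2 fold changes were -0.69 (SE 0.21) against heterozygous and -0.48 (SE 0.21) against wild-type libraries, at adjusted p-values of 0.985 and 0.654.

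Nfkbia measured 227, 145, 187 and 217 CPM in homozygous, 205, 158 and 309 CPM in heterozygous and 193, 256 and 145 CPM in wild-type libraries. Its groups overlapped in all 3 comparisons. Nfkbiz, a nuclear partner of NF-kB, was entirely lower in homozygous than in wild-type libraries (3.02 to 15.4 CPM against 17.01 to 20 CPM), at a log2 fold change of -0.74 (SE 0.55), short of the threshold (adjusted p = 0.938). Zfp36, which destabilises cytokine and Fos transcripts, ran from 106 to 168 CPM over all 10 libraries. Dusp1, the phosphatase that switches off stress kinases, ran from 9.93 CPM in wild-type replicate 1 to 131 CPM in wild-type replicate 2, the lowest and the highest of all libraries. Dusp2, Dusp5 and Socs3 had libraries at 0 in more than 1 genotype, and their standard errors for genotype were 1.79 or more on the log2 scale.

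Heat shock chaperones had the same sign in all 9 genes in both homozygous comparisons, with medians of -0.48 against wild type and -0.45 against heterozygous libraries, and none was called. Hspa8 measured 1783, 1588, 936 and 611 CPM in homozygous, 1957, 1631 and 837 CPM in heterozygous and 1807, 1572 and 790.3 CPM in wild-type libraries. Hsp90ab1 measured 1143, 898, 821 and 702 CPM in homozygous, 1154, 935 and 617 CPM in heterozygous and 1205, 843 and 753 CPM in wild-type libraries. Hsp90aa1, the stress-inducible HSP90, measured 137, 123, 97.2 and 96.6 CPM in homozygous, 169.7, 202 and 98.5 CPM in heterozygous and 245, 127 and 76.4 CPM in wild-type libraries. In each genotype the low values of these 3 genes were those of the f libraries, which are homozygous replicates 3 and 4, heterozygous replicate 4 and wild-type replicate 3. Leaving out libraries turned the sign of several chaperones in homozygous against wild-type libraries: over 19 alternatives Hspa8 ran from -0.46 to 0.07, Hsp90ab1 from -0.20 to 0.17, Dnaja1 from -0.91 to 0.24 and Hsph1 from -1.09 to 0.61.

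Hspa8 was lower in the libraries with title letter f than in those with m. With genotype kept in the fit, edgeR called 1 of 37 genes lower in f than in m libraries, Hspa8, beside 0.0214% of all tested genes called in either direction. At an unadjusted p under 0.05 there were 15 of 37, all lower in f, beside 6.14% of all tested genes. Of the 15, 8 were chaperones, out of 9 tested, and 7 were among the other 28 genes. The f libraries lay entirely below the m libraries for 5 of 37 genes, beside 0.663% of all tested genes, and all 5 were chaperones. The median log2 fold change was -1.11 over the 9 chaperones and -0.16 over the other 28, beside 0.02 over all tested genes.

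Hspa8 ran from 1572 to 1957 CPM (median 1707) in the 6 m libraries and measured 936, 611, 837 and 790.3 CPM in the 4 f libraries. The highest f library was well below the lowest m library. The fitted log2 fold change was -1.11 (SE 0.12), a 2.16-fold lower level, with an adjusted edgeR p of 0.0391. Taken within each genotype, the difference was -1.12 in homozygous, -1.10 in heterozygous and -1.10 in wild-type libraries (edgeR p for the letter by genotype term 0.995, unadjusted). The call depended on which library was left out: it was kept without homozygous replicate 3 or 4 and lost without any of the other 8, with adjusted p-values from 0.0211 to 0.282 and log2 fold changes from -1.23 to -1.01. Hspa8 and the Y-linked Eif2s3y and Kdm5d were the 3 genes called by edgeR of 14023. Xist was not among them, at 117 to 250.1 CPM in f and at most 2.46 CPM in m libraries. A large difference can thus miss this threshold, and a gene not called is not shown to be equal.

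The partners of HSP70 followed the same order. Dnaja1, a J-domain co-chaperone that stimulates HSP70, ran from 113 to 270.5 CPM (median 186) in m and measured 74.4, 53.4, 62.7 and 73.1 CPM in f libraries, without overlap. Its log2 fold change was -1.40 (SE 0.27) (unadjusted p 0.000559, adjusted p 0.43). Dnajb1, the stress-inducible J-domain protein, ran from 98 to 199 CPM (median 159) in m and measured 67.7, 62.5, 101 and 66.9 CPM in f libraries. Heterozygous replicate 4 exceeded the lowest m library by a few CPM, so the groups overlapped (-1.01, SE 0.22, adjusted p 0.563). Hsph1, which recharges HSP70 by exchanging its nucleotide, ran from 37.4 to 127 CPM (median 68.5) in m and measured 22.8, 23.6, 26.1 and 8.62 CPM in f libraries, without overlap. Its log2 fold change was -1.81 (SE 0.47) and did not pass (adjusted p = 0.668).

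Both HSP90 genes were likewise entirely lower in f libraries. Hsp90ab1 ran from 843 to 1205 CPM (median 1039) in m and measured 821, 702, 617 and 753 CPM in f libraries (-0.52, SE 0.14, adjusted p 0.668). Hsp90aa1 ran from 123 to 245 CPM (median 154) in m and measured 97.2, 96.6, 98.5 and 76.4 CPM in f libraries (-0.80, SE 0.22, adjusted p 0.68). The near-identical Hspa1a and Hspa1b, whose upstream sequences are given above, spanned a wide range. Hspa1a ran from 6.04 to 71.3 CPM (median 20.3) in m and measured 6.52, 1.72, 6.04 and 1.4 CPM in f libraries (-2.43, SE 0.85, adjusted p 0.756). Hspa1b ran from 2.58 to 71.98 CPM (median 26.6) in m and measured 2.31, 0.0301, 6.56 and 0 CPM in f libraries (-3.80, SE 1.55, adjusted p 0.788). Both overlapped, because homozygous replicate 2, an m library, was as low as f libraries. Hspb1, a small heat shock protein, was at most 4.26 CPM and was the 1 chaperone with a fitted value above 0 (3.44, SE 1.995, adjusted p 0.918). DESeq2 called 7 chaperones lower in f, all but Hspa1b and Hspb1, and none of the other 28 genes.

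**Figure D4:**
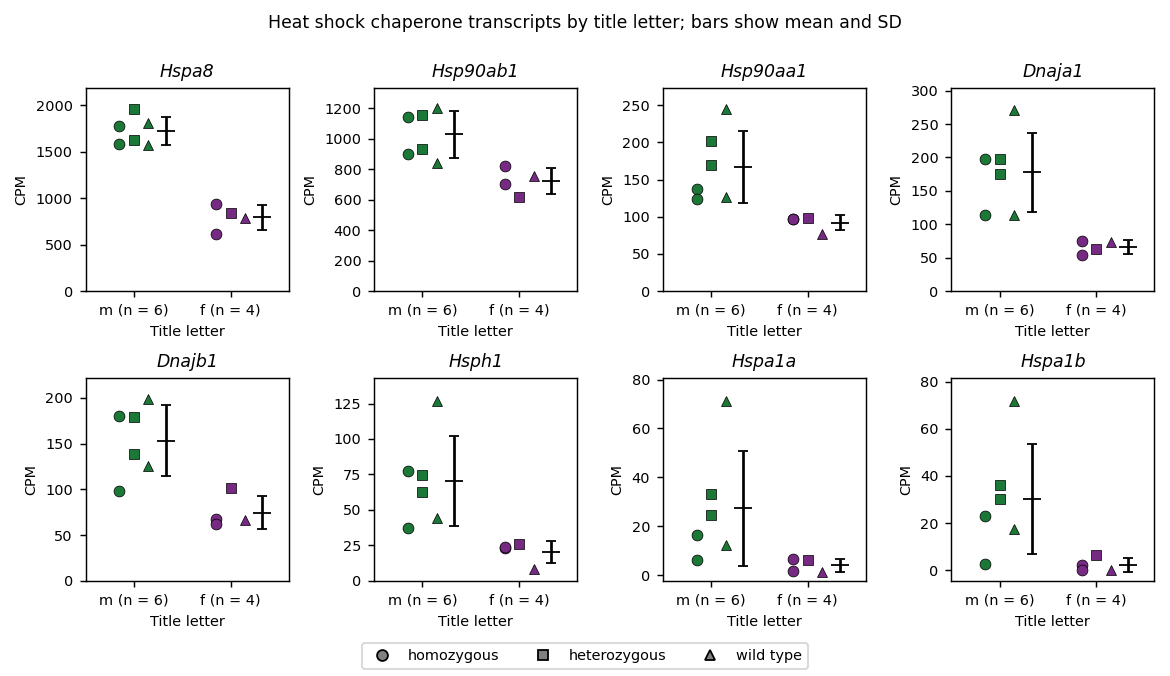
CPM of 8 heat shock chaperones (panels) in m (green, n = 6) and f (purple, n = 4) libraries; each point is 1 library, its shape gives the genotype, and bars show mean and SD. The f points of Hspa8, 611 to 936 CPM, lie below the m points, 1572 to 1957 CPM, in every genotype.

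Outside the chaperones, the 7 genes with an unadjusted p under 0.05 were Fos, Jun, Ier2, Ier3, Cebpd, Zfp36 and Dusp5, all lower in f. Fos ran from 31.2 to 149 CPM (median 77.3) in m and measured 41, 35.5, 20.2 and 22.6 CPM in f libraries. Its groups overlapped, at a log2 fold change of -1.31 (SE 0.53) and an adjusted p of 0.788. Jun had a fitted difference of -0.37 (SE 0.13) and Cebpd of -0.39 (SE 0.12), at adjusted p-values of 0.756 and 0.728. Egr1, Junb, Dusp1, Klf2, Btg1 and Btg2 had unadjusted p-values above 0.2. When the letter was allowed to act differently by genotype, 1 of 37 genes, Klf2, had an unadjusted p under 0.05 for that term (0.00336, adjusted p = 0.577), with f minus m values of 0.16 in homozygous, 0.38 in heterozygous and -1.43 in wild-type libraries. Microglia markers summed to 3138 to 9825 CPM in f and 2103 to 4870 CPM in m libraries, which overlapped, and none of the 9 passed. Gpr34 came closest, at a log2 fold change of 0.77 (SE 0.10, adjusted p = 0.0616). Their part in the chaperone difference was not tested. Replicate numbers 1 and 2 are all m and 3 and 4 all f, so the letter and anything that followed the replicate number cannot be told apart.

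As a readout of each library, the median deviation of the 37 genes from their means over all libraries (log2 CPM) was 0.36, -0.19, -0.23 and -0.15 in homozygous replicates 1 to 4. It was 0.33, 0.38 and -0.03 in heterozygous replicates 1, 2 and 4, and 0.23, 0.17 and -0.36 in wild-type replicates 1 to 3. The genotypes overlapped fully, with means of -0.05 ± 0.28 (SD, n = 4), 0.22 ± 0.23 (n = 3) and 0.01 ± 0.33 (n = 3). All tested genes had medians between -0.04 and 0.12. For the 9 chaperones the medians were 0.69, -0.08, -0.56 and -0.84 in homozygous, 0.66, 0.73 and -0.52 in heterozygous and 0.98, 0.17 and -0.74 in wild-type libraries. The f libraries thus ran from -0.84 to -0.52 and the m libraries from -0.08 to 0.98. Wild-type replicate 1 was the highest library for 7 of 9 chaperones but for 2 of the other 28 genes, beside 13.7% of all tested genes. Mitochondrially encoded transcripts, a common sign of RNA quality, held 0.448 to 0.74% of counts in f and 0.36 to 0.794% in m libraries.

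**Figure D5:**
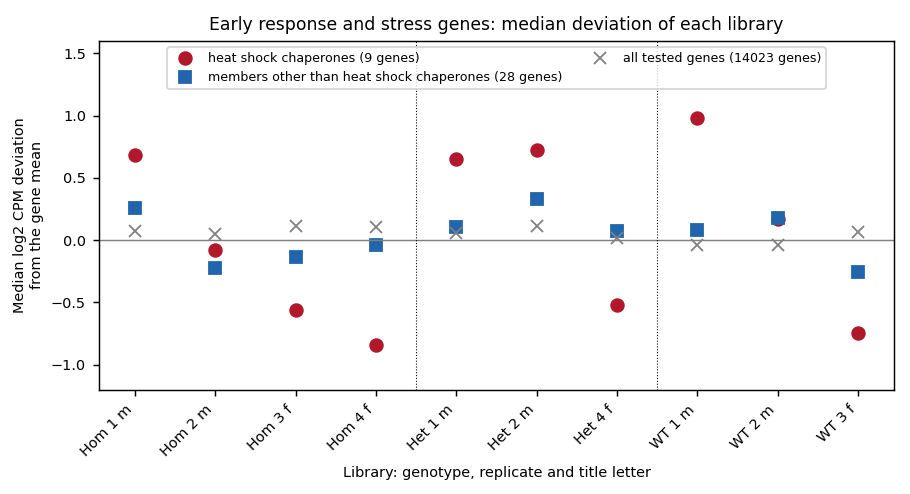
Median log2 CPM deviation from the gene mean (vertical axis) in each of 10 libraries for the 9 heat shock chaperones, the other 28 tested genes and all 14023 tested genes. Chaperones lie at -0.52 or lower in the 4 f libraries, while the other 28 genes lie between -0.25 and 0.33 in every library.

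Co-variation was computed for 12 gene pairs over the 10 libraries, on log2 CPM, with 100000 permutations and Benjamini-Hochberg adjustment over the pairs. The p-values are those of Pearson r unless Spearman is named for them. Hspa1a and Hspa1b correlated at r = 0.952 (Spearman 0.939, permutation p = 1e-05, the smallest these permutations can give, adjusted p = 0.00012), at 0.948 without the 2 libraries farthest from the median, and at 0.925 within the 6 m libraries (exact permutation p = 0.00833, adjusted p = 0.1). Reads of these near-identical copies cannot be told apart with certainty. Hspa1a and Dnajb1 correlated at r = 0.902 (Spearman 0.891, permutation p = 0.00027, adjusted p = 0.00162), and at 0.859 without those 2 libraries. Within the m libraries r was 0.792, which did not pass (exact permutation p = 0.0597, adjusted p = 0.233). Hspa8 and Hsp90aa1 fell into separate m and f clusters, and within the 6 m libraries r was 0.439 (exact permutation p = 0.372). Fos and Zfp36 correlated at r = 0.783 (permutation p = 0.00857, adjusted p = 0.0257), and at 0.68 without the 2 farthest libraries. Their Spearman value of 0.636 did not pass (permutation p for Spearman = 0.054, adjusted p = 0.13). The adjusted p of r passed the threshold no longer when homozygous replicate 2 or 4, or else wild-type replicate 2 or 3, was left out (r from 0.64 to 0.777). Within the m libraries r was 0.692 (exact permutation p = 0.114, adjusted p = 0.274). Fos and Hspa1a, the early and the heat shock reporters, correlated at r = 0.511 (Spearman 0.576, permutation p = 0.132, adjusted p = 0.198) and at -0.05 within the m libraries. The other 7 pairs did not pass.

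Further genes of the same pathways were counted from 4 lists, with calls by edgeR. Of 22 tested of 30 other immediate early genes, 0 were called in any comparison. The 4 most abundant were Dusp6, a MAP kinase phosphatase, Mcl1, a survival protein, and the transcript-destabilising Zfp36l2 and Zfp36l1. Dusp6 had a log2 fold change of -0.46 (SE 0.15, adjusted p = 0.749) in f against m libraries. Of 17 NF-kB targets and cytokines, 0 were called, and the most abundant were Cd83, Nfkb1, Ccl2 and Icam1. In homozygous libraries 4 of the 17 lay entirely below heterozygous ones (3.72% of all tested genes did) and 2 entirely below wild type (3.57%). In both comparisons 0 lay entirely above. Il1b and Ccl4, looked at after their values were seen, measured 1.09 to 5.69 and 0 to 1.93 CPM in homozygous libraries. In heterozygous ones they measured 26.6 to 61.3 and 4.61 to 7.91 CPM. In wild-type ones they measured 4.57 to 45.9 and 2.955 to 30.7 CPM. Ccl2, a monocyte chemokine, measured 178, 58.2, 50.01 and 20.6 CPM in homozygous, 102, 183 and 56.5 CPM in heterozygous and 86.1, 67.05 and 23.98 CPM in wild-type libraries. It was lower in all f libraries than in any m library (-1.60, SE 0.38, adjusted p = 0.634). So was Tnf, at 0 to 3.71 CPM in f and 5.95 to 22.3 CPM in m libraries. These were 2 of the 17, beside 0.663% of all tested genes, and 0 lay entirely higher in f (0.727%). Of 15 upstream factors, among them Mapk14, Map2k1 and Map2k2, 0 were called, with median fold changes between -0.17 and 0.03.

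Of 21 tested of 23 other heat shock genes, 0 were called between genotypes or by letter. In f against m libraries, 19 of 21 were fitted below 0 (48.3% of all tested genes were) and the median was -0.51. Hspa5, the HSP70 of the endoplasmic reticulum, measured 2538, 2542, 1937 and 1686 CPM in homozygous, 2283, 2193 and 1381 CPM in heterozygous and 2335, 2515 and 1824 CPM in wild-type libraries. It was lower in each f library than in any m library, at a log2 fold change of -0.52 (SE 0.07), just short of the threshold (adjusted p = 0.0616). Hsp90b1, its HSP90 counterpart in the same compartment, was among the few fitted above 0 (0.40, SE 0.17, adjusted p = 0.794). St13 and Hspa9, the next most abundant, had unadjusted p-values above 0.05 in that comparison. Between genotypes the list's medians were -0.03, -0.05 and 0.02 in the order homozygous against wild type, homozygous against heterozygous and heterozygous against wild type.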

How the data were processed

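Bulk RNA-seq gene counts of 10 libraries were used as deposited by the authors (whole reads per gene symbol). Per the submitters' processing notes, bcl2fastq 2.20, STAR 2.7.8a and featureCounts 2.0.2 were used. No source used here gives their settings, the genome build, the annotation or whether counting used strand, so overlapping and antisense genes cannot be told apart. Groups were taken from the genotype labels and the letters m and f from the titles.

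Genes were kept by filterByExpr (minimum count 10, minimum total 15), scaled by TMM and tested by edgeR 4.0.16 quasi-likelihood (R 4.3.3) in 1 fit over all 10 libraries, with Benjamini-Hochberg adjustment over 14023 genes and a call at an adjusted p under 0.05. The title letter was tested with genotype in the fit. CPM are counts per 1000000 of a library's total after that total was multiplied by its TMM factor (0.9762 to 1.0259). The deviations and correlations used log2 CPM with a prior count of 2. The 40 genes and the lists were chosen with earlier results of these data known, and no list was tested. Values in every library are given for the 3 most abundant genes per role group and the 6 with the smallest p per comparison, with any called gene named and, for each pathway list, the 4 most abundant. DESeq2 1.42.0, limma-voom (limma 3.58.1), other filters and scalings, the title letter, the replicate number and each library left out were alternatives, and the letter by genotype term was added after seeing the data. The tests were tried on simulated data first. No libraries of a genotype agreed within sampling noise (chi-square per gene 92.7 to 215). Libraries with the same replicate number deviated together weakly or not at all (r from -0.07 to 0.14 over 8 pairs), and the main fit did not pair them. These values cannot exclude a step shared by libraries of the same number.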

Additional observations from a re-analysis of the deposited data

Results flagged for a closer look

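In each genotype and letter group of 4 or more libraries, the highest and the lowest library were compared with the rest by Dixon's criterion. Of 111 groups (37 genes in 3 groups), 10 held a library that stood apart, where chance gives about 1 in 20, or 5.55.

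Among homozygous libraries, replicate 1 had 46.5 CPM of Ier3 against 20.3 to 23.8 CPM in the others. The same library had 23.1 CPM of Hspa1b against 0.0301 to 2.58 CPM. Homozygous replicate 3 had 9.21 CPM of Dusp2, which was at 0 in the other 3. Homozygous replicate 4 had 195.4 CPM of Btg1 against 152 to 158 CPM and 227 CPM of Btg2 against 134 to 147 CPM.

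Among the m libraries, heterozygous replicate 2 had 106 CPM of Egr1 against 16.1 to 40.6 CPM, and heterozygous replicate 1 had 13.9 CPM of Nr4a1 against 0 to 3.16 CPM. Among the f libraries, homozygous replicate 3 had 0.76 CPM of Gadd45b, which was at 0 in the other 3. Wild-type replicate 3 had 76.4 CPM of Hsp90aa1 against 96.6 to 98.5 CPM, and heterozygous replicate 4 had 101.0 CPM of Dnajb1 against 62.5 to 67.7 CPM.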

How the results depend on the processing

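For homozygous against wild type, DESeq2 called 2 of the 37 genes (Btg1 and Klf2), and leaving out 1 library gave 0 to 1 (Klf2 without wild-type replicate 3). The other genotype comparisons gave 0 calls in every alternative. For f against m, 2 genes were called with no count filter (Hspa8 and Dnaja1) and 7 by DESeq2, and leaving out 1 library gave 0 to 1. Over all genes tested, DESeq2 called 287, 128, 229 and 174 genes for homozygous against wild type, homozygous against heterozygous, heterozygous against wild type and f against m, where edgeR called 9, 3, 0 and 3. With the replicate number as a block, edgeR called 0 of the 37 genes in each genotype comparison, and the medians were -0.10, -0.22 and 0.13. For f against m the block could not be fitted, since numbers 1 and 2 are all m and 3 and 4 all f. The cause of these differences between settings was not tested. Groups of 3 or 4 libraries limit the precision of the fold changes, and the genes below 5 CPM have standard errors above 1 on the log2 scale for genotype.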

Other observations

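Of the 21 tested heat shock genes outside the 40, 5 lay entirely lower in f than in m libraries (0.663% of all tested genes did) and 0 entirely higher, and none passed in edgeR. Beside Hspa5, these were Stip1, which links HSP70 to HSP90, with a log2 fold change of -1.098 (SE 0.24, adjusted p = 0.541), Chordc1 with -1.17 (SE 0.30, adjusted p = 0.668), Cacybp with -0.89 (SE 0.21, adjusted p = 0.634) and Fkbp4 with -0.51 (SE 0.16, adjusted p = 0.746). They were chosen after their values were seen. Ahsa1, an activator of HSP90 in the same list, overlapped between f and m libraries (-0.28, SE 0.14, adjusted p = 0.864), as did the other 15.

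Of the 22 tested immediate early genes outside the 40, a few did not overlap between genotypes. They too were chosen after their values were seen. Against wild type, 1 of 22 lay entirely lower in homozygous libraries (3.57% of all tested genes did) and 1 entirely higher (4.4%). Against heterozygous libraries the counts were again 1 lower (3.72%) and 1 higher (3.75%). Heterozygous libraries had 0 entirely lower (4.16%) and 2 entirely higher (5.43%) than wild type. Myc, a growth factor-induced transcription factor, was lower in every homozygous library than in any heterozygous or wild-type library. It differed by -1.24 on the log2 scale (SE 0.27) from heterozygous and by -0.75 (SE 0.27) from wild-type libraries, with an adjusted p of 0.616 in both by edgeR's quasi-likelihood test. Ppp1r15a, a stress-induced phosphatase subunit, was entirely higher in homozygous than in wild-type libraries (1.31, SE 0.72, adjusted p = 0.749), and Ier5l entirely higher than in heterozygous ones (1.14, SE 0.57, adjusted p = 1). Klf10, induced by TGF-beta, and Maff were higher in every heterozygous than in any wild-type library. Klf10 had a log2 fold change of 1.14 (SE 0.26, adjusted p = 0.658), and Maff averaged 1.66 CPM in heterozygous libraries and was at 0 in all wild-type ones.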
